A study of Xerophyta schlechteri with 51 samples.

Results

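In drying leaves of Xerophyta schlechteri, a resurrection plant, 247 genes had opposite changes of their group means in non-senescent and senescent tissue, of 21815 entries in the deposited table. They were chosen among the 20783 gene IDs listed a single time. A group's value was the mean FPKM of its 3 libraries plus 1, where FPKM corrects a transcript's fragments for its length and for the library's mapped total, and the highest of the 4 groups compared had to reach 10. From full turgor to <10% relative water content (RWC, which compares a leaf's water with that of the same leaf when fully hydrated), the value had to be at least 1.5 times higher in one tissue and at least 1.5 times lower in the other. Genes at least 8 times higher in dry senescent than in dry non-senescent tissue, and genes over 4-fold from full turgor in dry non-senescent tissue, were left out. This removed 71 of 318 opposite genes, 68 of them lower in dry non-senescent tissue. The rule left 128 genes up in dry non-senescent and down in dry senescent tissue, called NST-raised below, and 119 genes down in dry non-senescent and up in dry senescent tissue, called ST-raised below.

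The samples were leaf blades, with 51 libraries in 17 groups of 3. Non-senescent tissue (NST) and senescent tissue (ST) were taken at full turgor, 75%, 55%, 35% and <10% RWC and 48 h after rehydration, and pre-senescent tissue (PST) at each of these stages except full turgor. The stage label gives the water content of the NST, so the ST and PST of a stage may have held another amount, and the protocols state that RWC varied after rehydration. The labels give no genetic or chemical treatment. They do not tie the replicates to plants either, and p-values below therefore reflect the scatter among these libraries, part of which may be technical. The summed FPKM of a library ran from 489069 to 1064467. It was 568182 ± 70773 in NST and 551001 ± 50454 in ST at full turgor, against 866584 ± 108660 and 980887 ± 72464 at <10% RWC (SD, n = 3 each). The table holds no read counts, and depth was not estimated here.

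Leaves of resurrection plants lose nearly all of their free water, stop metabolism and resume it on rewatering. They are known for halting photosynthesis early and for building up sugars and protective proteins, such as late embryogenesis abundant proteins, that stabilise membranes and proteins in the dry state. In leaf tips and old leaves drying instead runs into senescence, the ordered breakdown of chloroplasts and macromolecules that ends in cell death. No gene names, annotation or sequences come with the IDs of the table, so the roles of the 247 genes, and markers of leaf cell types, cannot be given, and genes are named by ID alone. In bulk tissue, fewer cells of a type and less RNA per cell cannot be told apart.

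The opposite genes were a small share of the drying response. Of the 11358 IDs that reached the minimum of 10, 3426 (30.2%) were at least 1.5 times up in both tissues, 2899 (25.5%) down in both, and 318 (2.80%) opposite before the exclusions. The genes sat at moderate levels and moved by moderate amounts. NST-raised genes had a median of 15.3 FPKM in NST and 16.2 FPKM in ST at full turgor, 31.8 FPKM in dry NST and 7.69 FPKM in dry ST. ST-raised genes had medians of 15.9 and 15.7 FPKM at full turgor, 6.85 FPKM in dry NST and 36.4 FPKM in dry ST. At full turgor the tissues thus began from like medians, and the most abundant gene, an ST-raised one, averaged 6942 FPKM in NST. Of NST-raised genes 20 averaged at least 100 FPKM in dry NST and 2 in dry ST, and of ST-raised genes 2 did in dry NST and 21 in dry ST. In the lower of the dry tissues, 2 NST-raised and 6 ST-raised genes averaged under 1 FPKM, and 0 were listed at 0 in all 3 libraries. These group means, and the differences within these 12 libraries given below, are what the rule used, so they describe the choice and carry no test.

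**Figure D1:**
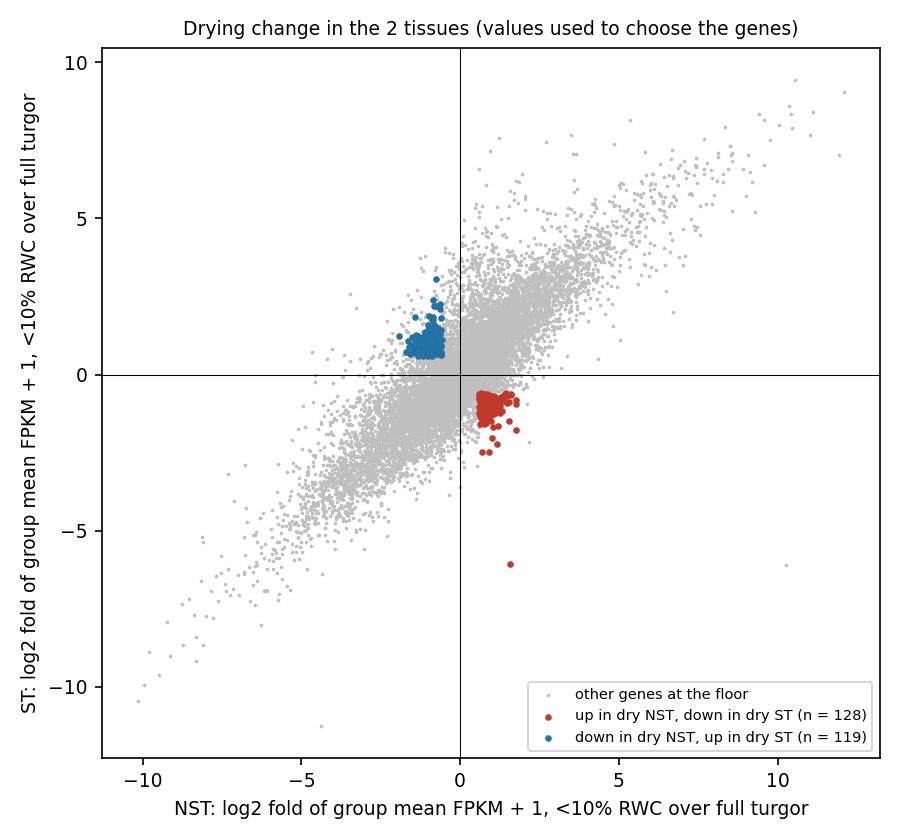
Log2 fold of the group mean FPKM + 1 at <10% RWC over full turgor in NST (horizontal axis) and ST (vertical axis), for the 11358 IDs at the minimum level. Each point is a gene. The 128 NST-raised genes (red) lie at lower right and the 119 ST-raised genes (blue) at upper left, with most other genes (grey) on the diagonal.

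Among the genes that the rule left, changes were of like size in both tissues. The rule itself bounded these sizes. It set a minimum fold in both tissues and left out genes with large changes in NST or a large excess in dry ST. The exclusions took out 68 genes down in NST and up in ST and 3 of the other direction. Nothing is therefore read from the likeness. The change was larger in ST than in NST for 64 of 128 NST-raised genes and for 62 of 119 ST-raised genes. Among NST-raised genes the median log2 fold was 0.86 in NST (range 0.59 to 1.76) and -0.89 in ST (range -6.08 to -0.59). Among ST-raised genes it was -0.90 in NST (range -1.92 to -0.59) and 1.02 in ST (range 0.59 to 3.05). At least 2-fold in both tissues were 16 NST-raised and 24 ST-raised genes. Next to the threshold, the NST-raised genes just inside had a fold of 1.505, 1.507 and 1.509 in their less changed tissue, and the nearest genes outside 1.4996, 1.498 and 1.497. For ST-raised genes these were 1.5005, 1.502 and 1.502 inside and 1.495, 1.492 and 1.488 outside, so the edge cuts through a continuum.

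The chosen group means did not always come with separate libraries. The 3 dry and 3 full-turgor libraries did not overlap in either tissue for 78 of the 128 NST-raised genes. Of all 11358 IDs, 1.1% were apart in this way, and since the rule used this contrast nothing is read from the difference. For ST-raised genes it was 28 of 119 (0.722% of all). A single library weighed heavily in the latter. Dry ST replicate 0 was the highest of the 3 dry ST libraries for 104 of the 119 ST-raised genes, and the median of these genes, relative to NST at full turgor on the log2(FPKM + 1) scale, was 1.85 in that library and 0.48 and 0.60 in replicates 1 and 2. Without it the rule chose 184 genes, 112 NST-raised and 72 ST-raised, and 148 of the 247 stayed in their class. For NST-raised genes the dry ST libraries stood at -1.18, -0.68 and -0.89. The genes were chosen on the mean of these libraries.

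Choosing again with 1 replicate number left out gave another view. When replicate 0, 1 or 2 was left out of all 4 groups and genes were chosen on the remaining libraries, 116, 165 and 129 NST-raised genes resulted. In the libraries left out, 83.6%, 80.6% and 76.7% of them again had higher dry NST and lower dry ST, against 9.39%, 7.96% and 9.53% of all IDs at the minimum level. ST-raised genes chosen in this way numbered 102, 146 and 135, and 55.9%, 60.3% and 57.0% kept both directions, against 10.5%, 7.73% and 11.1%. At the 1.5-fold size in both tissues the shares were 54.3%, 22.4% and 46.5% for NST-raised genes and 29.4%, 11.0% and 21.5% for ST-raised genes, against 0.879% to 2.22% of all. In each of the 3 cases the shares were lower for ST-raised than for NST-raised genes.

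To 35% RWC the medians of ST lay near those of NST for NST-raised genes and above them for ST-raised genes. At <10% RWC the rule itself set the tissues on opposite sides. Values here are medians over genes of log2(FPKM + 1), relative to NST at full turgor, as mean ± SD of 3 libraries. For NST-raised genes NST stood at 0.09 ± 0.41 at 75%, 0.15 ± 0.04 at 55%, 0.78 ± 0.18 at 35% and 0.88 ± 0.18 at <10% RWC. ST stood at 0.13 ± 0.26, 0.14 ± 0.47 and 0.61 ± 0.16 at the first 3 of these stages, close to NST, and at -0.92 ± 0.25 at <10% RWC. PST followed NST, with 0.11 ± 0.35 at 75%, 0.46 ± 0.28 at 55%, 0.91 ± 0.33 at 35% and 0.70 ± 0.13 at <10% RWC.

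ST-raised genes had medians of the other sign at each of these stages. NST stood at -0.42 ± 0.68 at 75%, -0.57 ± 0.19 at 55%, -1.28 ± 0.22 at 35% and -0.99 ± 0.33 at <10% RWC. ST stood at -0.06 ± 0.66, -0.25 ± 0.40 and -0.83 ± 0.27, and then at 0.98 ± 0.76 at <10% RWC. PST was at -0.13 ± 0.55 at 75%, -0.62 ± 0.14 at 55%, -1.05 ± 0.49 at 35% and -0.57 ± 0.22 at <10% RWC, again on the NST side. At 35% RWC, ST was below its own full turgor in 113 of the 119 genes, and all 119 were higher in dry ST than in ST at 35% RWC. Among NST-raised genes, 112 of 128 were above ST full turgor at 35% RWC and 127 were lower in dry ST than at 35%. Over all 18717 genes tested, 45.1% were above and 54.7% below ST full turgor at 35% RWC. Of the same genes 50.8% were higher and 48.1% lower in dry ST than in ST at 35% RWC. The choice fixed the direction of dry ST against full turgor in every gene. Nothing is therefore read from the counts that involve dry ST or ST at full turgor, both of which the rule used. Replicate 0 at 75% RWC stood apart in each tissue, with ST-raised genes at 0.33 in NST, 0.50 in PST and 0.68 in ST, where the other 6 libraries of that stage lay between -0.99 and -0.31.

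**Figure D2:**
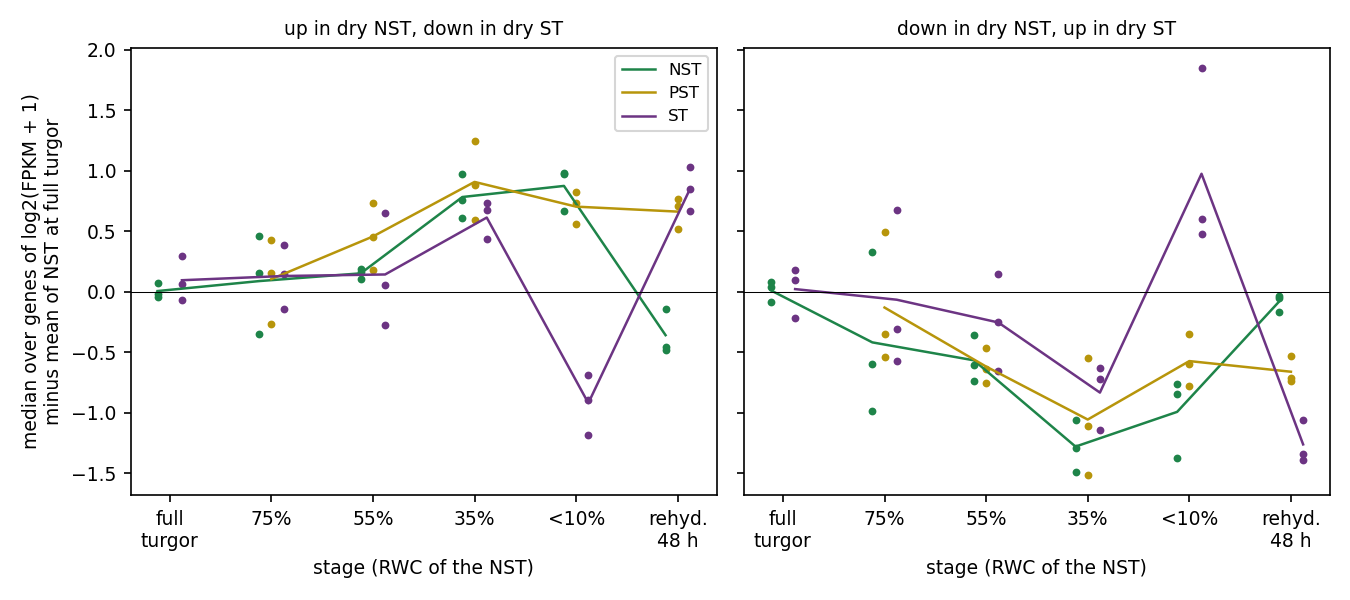
Median over genes of log2(FPKM + 1) minus the mean of NST at full turgor (vertical axis) by stage, for NST-raised (left) and ST-raised genes (right). Points are libraries and lines join the means of 3 libraries in NST, PST and ST. To 35% RWC, ST lies near NST for NST-raised genes and above it for ST-raised genes. It lies on the opposite side of 0 at <10% RWC. After rehydration it lies near where dry NST had been for NST-raised genes and below that for ST-raised genes.

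Drying from 75% to 35% RWC, in libraries the rule did not use, was the first stretch open to a test. Tests were by limma on log2(FPKM + 1) over all 18717 genes, with an adjusted p under 0.05 as the threshold. In NST, 42 of 128 NST-raised genes rose and 4 fell, where 11.1% of all tested genes and 15.5% of IDs at the minimum level rose. Of 119 ST-raised genes, 33 fell and 0 rose, where 11.7% of all genes and 13.6% of IDs at the minimum level fell. Of genes up in both tissues on drying, 35.3% rose, against 32.8% of NST-raised genes. Of genes down in both, 32.8% fell, against 27.7% of ST-raised genes. Neither set was held to the exclusions. Median log2 changes of NST-raised and ST-raised genes were 0.76 and -0.83, against -0.09 over all genes, and 0.52 and -0.50 without NST at 75% RWC replicate 0. The total of 79 called genes was 20 and 43 without NST at 75% RWC replicates 0 and 1 and 37 without NST at 35% RWC replicate 1. When limma was fitted to these groups alone it was 0, with 85 at an unadjusted p under 0.05. That count was not made over all genes, so nothing is read from it.

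In ST the median changes from 75% to 35% RWC had the same signs, 0.44 and -0.76, against -0.04 over all genes. There 112 of 128 NST-raised genes had a positive and 113 of 119 ST-raised genes a negative estimate. Over all genes 46.0% of estimates were positive and 53.3% negative. Of genes up in both tissues on drying 65.1% were positive, and of genes down in both 71.2% were negative. Limma called 0 of the 247 in ST, where 0.0107% of all genes rose and 0.0107% fell (0.0176% each of IDs at the minimum level). Of all 18717 genes 2404 had an unadjusted p under 0.05, among them 31 NST-raised and 30 ST-raised genes. These 61 were 15 without ST at 75% RWC replicate 0, where the medians were 0.33 and -0.46, and 29 without ST at 35% RWC replicate 2. Estimates had the same sign in NST and ST for 112 of 128 and 107 of 119 genes, and for 14646 of all 18717. Opposite signs were held by 12.5% of NST-raised, 10.1% of ST-raised and 20.8% of all genes.

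The difference between the tissues in this stretch was tested directly. Limma called 0 of the 247 genes (0% of all genes in either direction), with 5 NST-raised and 0 ST-raised genes at an unadjusted p under 0.05. Of all 18717 genes 716 were at such a p. The median difference, ST change minus NST change, was -0.29 for NST-raised and 0.12 for ST-raised genes, against 0.03 over all genes. It was -0.44 for genes up in both tissues on drying and 0.53 for genes down in both. Differences of these signs were thus not particular to the opposite genes. Single libraries set the values of NST-raised and ST-raised genes. They were -0.03 and -0.20 without NST at 75% RWC replicate 0, -0.11 and -0.16 without ST at 75% RWC replicate 2, -0.11 and -0.01 without NST at 35% RWC replicate 1, and -0.24 and -0.03 without ST at 35% RWC replicate 0. Over all 12 libraries left out in turn they ran from -0.41 to -0.03 and from -0.20 to 0.46. With the replicate number as a block within each stage, an alternative chosen after seeing the data, limma again called 0 of the 247, where 0.93% of all genes were called in either direction. In that fit 47 of the 247 had an unadjusted p under 0.05, a count not made over all genes.

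At 75% and 55% RWC the number of genes that differed between ST and NST depended on whether the replicate number was part of the fit. At 75% RWC limma called 3 ST-raised genes higher in ST and 1 NST-raised gene lower, where 1.18% of all genes were higher and 0.871% lower (1.57% and 1.27% of IDs at the minimum level). With the block within each stage the total of 4 was 58, or 23.5% of the 247, where 26.2% of all genes were called. Without NST replicate 0, NST replicate 1 or ST replicate 0 it was 0, and without NST replicate 2 or ST replicate 2 it was 7 and 8. At 55% RWC 2 ST-raised genes were higher, 2 ST-raised genes lower and 1 NST-raised gene lower, where 0.657% of all were higher and 0.353% lower (0.74% and 0.502% of IDs at the minimum level). With that block the total of 5 was 68, or 27.5%, where 19.8% of all genes were called. It was 1, 3 and 0 without NST replicates 0, 1 and 2, and 2, 0 and 15 without ST replicates 0, 1 and 2. When limma was fitted to NST and ST of the stage alone both totals were 0, and 22 and 34 of the 247 had an unadjusted p under 0.05. These last counts were not made over all genes, so nothing is read from them.

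Median differences at these stages were 0.08 for NST-raised and 0.35 for ST-raised genes at 75% RWC and -0.05 and 0.29 at 55% RWC. For ST-raised genes the median at 75% RWC ran from 0.00 without ST replicate 0 to 0.72 without NST replicate 0, and at 55% RWC it was 0.09 without ST replicate 1 and 0.46 without ST replicate 0. For NST-raised genes it ran from -0.18 to 0.22 and from -0.29 to 0.24 and so had no stable sign. Between libraries of 1 replicate number, the medians of ST-raised genes at 75% RWC were 0.37, 0.17 and 0.55 in numbers 0, 1 and 2, all with ST above NST. At 55% RWC they were -0.12, 0.49 and 0.36.

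At 35% RWC the differences were small but leaned toward the dry pattern. ST was below NST in 113 of 128 NST-raised genes, with a median of -0.22, and above it in 106 of 119 ST-raised genes, with a median of 0.40. The first median was -0.12 without NST replicate 1 and -0.13 without ST replicate 0. Over all tested genes 48.3% were above and 50.7% below, with a median of 0.00, and of IDs at the minimum level 45.0% were above and 54.8% below. Limma called 0 of the 247 (0.0107% of all genes were higher and 0% lower, 0.0176% and 0% of IDs at the minimum level). Unadjusted p-values were under 0.05 for 3 NST-raised and 12 ST-raised genes, and for 550 of all 18717 genes. Under the block within each stage, 5 ST-raised genes were higher in ST, or 2.02% of the 247, where 0.919% of all genes were called in either direction. The lean was not the same in every replicate number. Comparing libraries of 1 number, the medians for NST-raised genes were -0.34, -0.39 and 0.13 in numbers 0, 1 and 2, and those for ST-raised genes 0.37, 0.71 and 0.16. In the dry leaf, which the rule used, they were -2.21, -1.29 and -1.91 for NST-raised and 2.51, 1.33 and 2.03 for ST-raised genes.

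**Figure D3:**
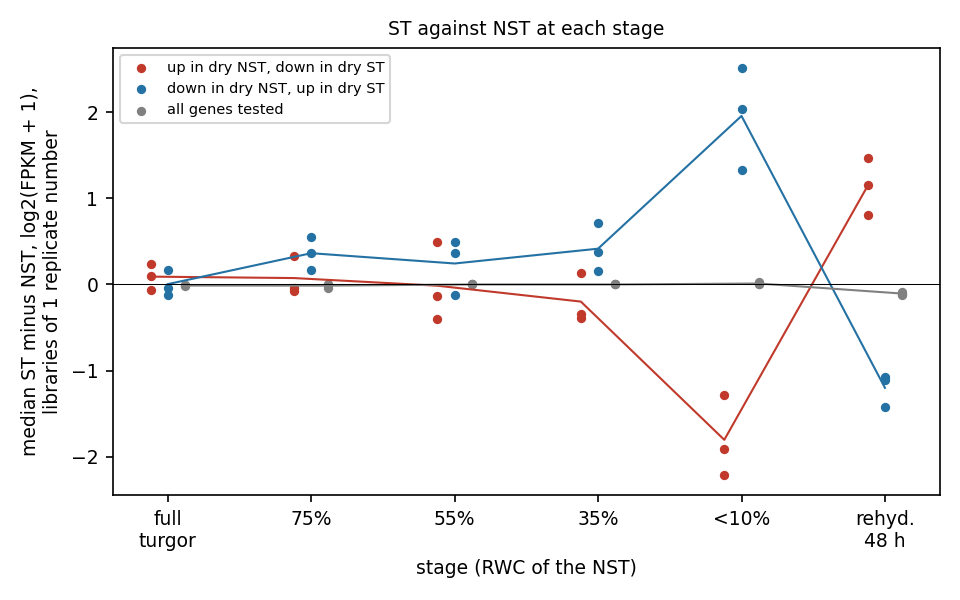
Median ST minus NST difference in log2(FPKM + 1) (vertical axis) between libraries of 1 replicate number, by stage. Points are the 3 replicate numbers and lines join their means, for NST-raised genes (red), ST-raised genes (blue) and all genes tested (grey). The gap is widest at <10% RWC, where the rule set it, from -2.21 to 2.51, and has the other sign after rehydration.

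PST libraries took no part in the choice. In the fit of all libraries, NST-raised genes rose there on drying at a higher share than all genes. Genes up in both tissues rose at a higher share still. From 75% to <10% RWC in PST, 33 of 128 NST-raised genes rose and 4 fell (12.6% of all genes and 17.7% of IDs at the minimum level rose), and 15 of 119 ST-raised genes fell and 2 rose (13.1% and 14.1% fell). The share of ST-raised genes that fell was thus at the level of all genes. Of genes up in both tissues on drying, 42.2% rose, against 25.8% of NST-raised genes. Of genes down in both, 39.6% fell, against 12.6% of ST-raised genes. Median log2 changes of NST-raised and ST-raised genes were 0.59 and -0.47, against -0.06 over all genes. Without PST at 75% RWC replicate 0 they were 0.42 and -0.07, against -0.05 over all genes. In that fit 7 NST-raised genes rose and 3 fell, and 2664 of all 18717 genes were called in either direction. Dry PST was nearer to dry NST than to dry ST in 124 of 128 and 115 of 119 genes, a distance that involves libraries of the choice. The total of 54 was 14 and 29 without PST at 75% RWC replicates 0 and 1, 24 without PST at <10% RWC replicate 2, and 4 when both groups were fitted alone.

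After rehydration the tissues differed again, with the signs of the dry state turned. None of these libraries entered the choice. In rehydrated ST, 73 of 128 NST-raised genes were higher than in rehydrated NST and 0 lower, where 22.9% of all tested genes were higher. Of 119 ST-raised genes, 63 were lower and 2 higher, where 30.7% of all were lower. Among IDs at the minimum level 31.7% were higher and 27.6% lower. Median log2 differences were 1.17 and -1.13, against -0.13 over all genes. By their medians, NST-raised genes were thus lower in dry ST than in dry NST but higher in rewatered ST than in rewatered NST, and ST-raised genes the reverse. The total of 138 lay between 117 and 133 when any 1 of the 6 libraries was left out. Quantile normalization moved the median of all genes by 0.19 here and gave medians of 1.29 and -0.99.

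**Figure D4:**
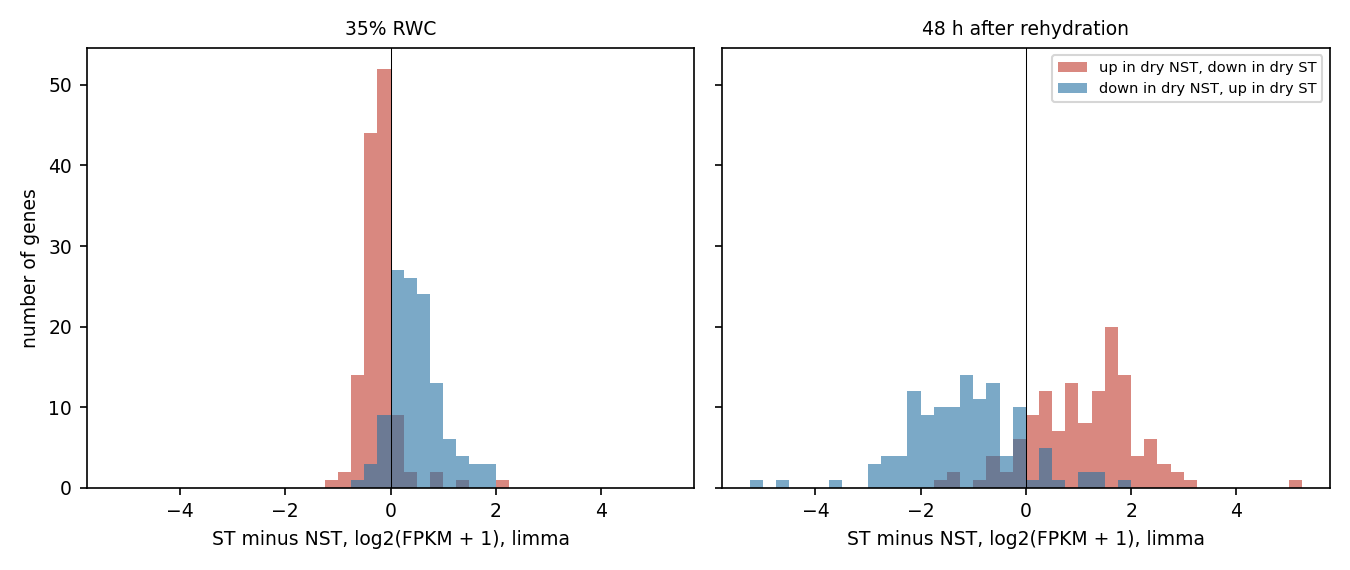
Number of genes (vertical axis) by limma's ST minus NST difference in log2(FPKM + 1) (horizontal axis, bins of 0.25) at 35% RWC (left) and 48 h after rehydration (right), stages whose libraries the rule did not use. NST-raised genes (red) have medians of -0.22 and 1.17 and ST-raised genes (blue) of 0.40 and -1.13, so the classes change sides.

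After rehydration both tissues stood away from their dry values, which the rule had used, so nothing is read from the distance. In rehydrated NST, NST-raised genes stood at -0.36 ± 0.19 and ST-raised genes at -0.08 ± 0.07 relative to full turgor (SD, n = 3). NST-raised genes ended below their starting level more often than above it, with rehydrated libraries entirely below those at full turgor in 51 of 128 genes and entirely above in 27. Over all tested genes these shares were 20.7% and 21.0%, and the full-turgor libraries were part of the choice. Rehydrated ST stood at 0.85 ± 0.18 for NST-raised and -1.26 ± 0.18 for ST-raised genes, where dry NST stood at 0.88 ± 0.18 and -0.99 ± 0.33. Its median difference from dry NST was -0.03 for NST-raised and -0.32 for ST-raised genes, with 82 of 119 ST-raised genes lower. Over all 18717 tested genes this median was -0.002 (quartiles -0.32 and 0.30), with 50.2% lower. Closeness of rehydrated ST to dry NST was thus not particular to these genes. Rehydrated ST was nearer to dry NST than to dry ST in 118 of 128 and 118 of 119 genes. From dry to rehydrated ST, 125 of 128 NST-raised genes were higher and 119 of 119 ST-raised genes lower, with medians of 1.80 and -2.32. These last comparisons contain dry libraries of the choice and are given as values.

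Genes that moved alike in both tissues had a like outcome in rewatered ST. Of the 3426 IDs up in both on drying, 70.9% were higher in rehydrated ST than in rehydrated NST, and of the 2899 down in both, 73.8% were lower. The corresponding shares were 57.0% of NST-raised and 52.9% of ST-raised genes. Whether the shares differ was not tested.

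Rehydrated PST was nearer to rehydrated ST than to rehydrated NST in NST-raised genes. Against rehydrated NST, 60 of 128 NST-raised genes were higher and 0 lower in PST (13% of all genes and 18% of IDs at the minimum level were higher), and 25 of 119 ST-raised genes were lower and 2 higher (18.2% and 16.6% were lower). Medians were 0.95 and -0.57, against -0.06 over all genes. The 25 were 15 and 13 without NST replicates 0 and 1 and 14 without PST replicate 2. Against rehydrated PST, 7 NST-raised genes were higher and 1 lower in rehydrated ST (10.9% of all genes and 16.6% of IDs at the minimum level were higher), and 15 ST-raised genes were lower and 1 higher (12.1% and 11.9% were lower). That total of 24 was 8 and 7 without PST replicates 0 and 1, 11 and 11 without ST replicates 1 and 2, and 80 with the block within each stage, or 32.4% of the 247, where 44.5% of all genes were called. When limma was fitted to both groups alone it was 0, and 62 of the 247 had an unadjusted p under 0.05, a count not made over all genes.

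Within PST, limma called 36 of the 247 genes on rewatering, and 5625 of all 18717. From <10% RWC to 48 h after rehydration, 4 NST-raised genes rose and 10 fell, and 7 ST-raised genes rose and 15 fell, where 16.3% of all genes rose and 13.8% fell (15.8% and 19.5% of IDs at the minimum level). The share of ST-raised genes that fell, 12.6%, was thus near that of all genes. Medians were -0.04 and -0.11, against 0.03 over all genes, and ran from -0.12 to 0.06 and from -0.18 to 0.05 without any 1 library. Quartiles were -0.48 and 0.42 for NST-raised genes, -0.83 and 0.43 for ST-raised genes and -0.56 and 0.64 over all genes. Estimates of single genes thus went both ways. Genes up in both tissues on drying had a median of -0.98 in this comparison, and 46.1% of them fell. Genes down in both had 1.05, and 48.1% rose. For NST-raised genes PST thus stood at 0.70 ± 0.13 when dry and 0.66 ± 0.13 when rewatered, and for ST-raised genes at -0.57 ± 0.22 and -0.66 ± 0.11. The total of 36 was 22 and 22 without PST at <10% RWC replicates 0 and 1, 18 and 21 when replicate 0 or 1 of rehydrated PST was left out, and 20 when both groups were fitted alone.

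Single genes follow, 2 of each class, being those with the largest smaller-of-both change among genes whose libraries did not overlap in either tissue. The NST-raised gene Xvis03_213290 stood at 11.86, 14.58 and 13.89 FPKM in NST at full turgor and at 72.78, 25.88 and 44.62 FPKM at <10% RWC (replicates 0, 1 and 2, here and below). In ST it stood at 11.88, 15.64 and 14.60 FPKM at full turgor, 22.24, 25.85 and 40.36 FPKM at 35% RWC, and 2.46, 4.69 and 2.97 FPKM at <10% RWC. It was thus above full turgor in all 3 ST libraries at 35% RWC and below it in all 3 dry ones. After rehydration it stood at 8.42, 8.13 and 11.52 FPKM in NST and at 56.15, 78.31 and 36.02 FPKM in ST, without overlap. That difference, on the log2(FPKM + 1) scale, was 2.43 (SE 0.47; limma, adjusted p = 4.06e-05). PST held 31.05, 24.84 and 35.32 FPKM after rehydration, 1.601 above NST (SE 0.47; limma, adjusted p = 0.00855).

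The NST-raised gene Xvis03_213987 gave the lowest values in dry ST. It was listed at 0, 0.49 and 0 FPKM there, against 19.02, 34.49 and 179.83 FPKM in ST at full turgor. Dry NST held 107.52, 143.26 and 336.05 FPKM, and dry PST 125.74, 62.76 and 313.57 FPKM. A value listed at 0 may stand for an estimate that failed, and this gene varied widely elsewhere. At 35% RWC the ST libraries held 221.89, 373.72 and 0.54 FPKM. After rehydration NST held 34.25, 0 and 0.79 FPKM and ST 43.11, 0.74 and 30.75 FPKM, which overlap, and the difference of 1.76 (standard error 1.47) did not pass the test (limma, adjusted p = 0.329).

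The ST-raised gene Xvis03_220689 stood at 40.84, 14.43 and 42.27 FPKM in ST at full turgor, 25.19, 20.60 and 3.81 FPKM at 35% RWC and 111.54, 45.82 and 69.74 FPKM at <10% RWC. NST held 26.15, 15.00 and 42.41 FPKM at full turgor and 14.90, 12.85 and 7.79 FPKM at <10% RWC. Dry ST was thus above all 6 of these NST libraries. After rehydration the order was turned, with 62.33, 60.94 and 19.02 FPKM in NST and 10.22, 5.55 and 11.58 FPKM in ST, a log2 difference of -2.14 (SE 0.64; limma, adjusted p = 0.00465).

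The ST-raised gene Xvis03_211882 depended most on 1 library. In dry ST it stood at 87.24, 18.78 and 21.00 FPKM, all above the 16.36, 14.19 and 16.56 FPKM of ST at full turgor, but far above only in replicate 0. Dry NST held 7.97, 7.34 and 7.39 FPKM, against 16.20, 16.77 and 19.76 FPKM at full turgor. After rehydration NST held 34.64, 44.97 and 20.36 FPKM and ST 26.84, 11.21 and 7.24 FPKM, which overlap. The log2 difference of -1.21 (standard error 0.49) passed the test (limma, adjusted p = 0.0365). It did not pass without NST replicate 0 or 1 (limma, adjusted p = 0.0881 and adjusted p = 0.151), without ST replicate 1 or 2 (limma, adjusted p = 0.1003 and adjusted p = 0.213), or when both groups were fitted alone (limma, adjusted p = 0.0985).

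**Figure D5:**
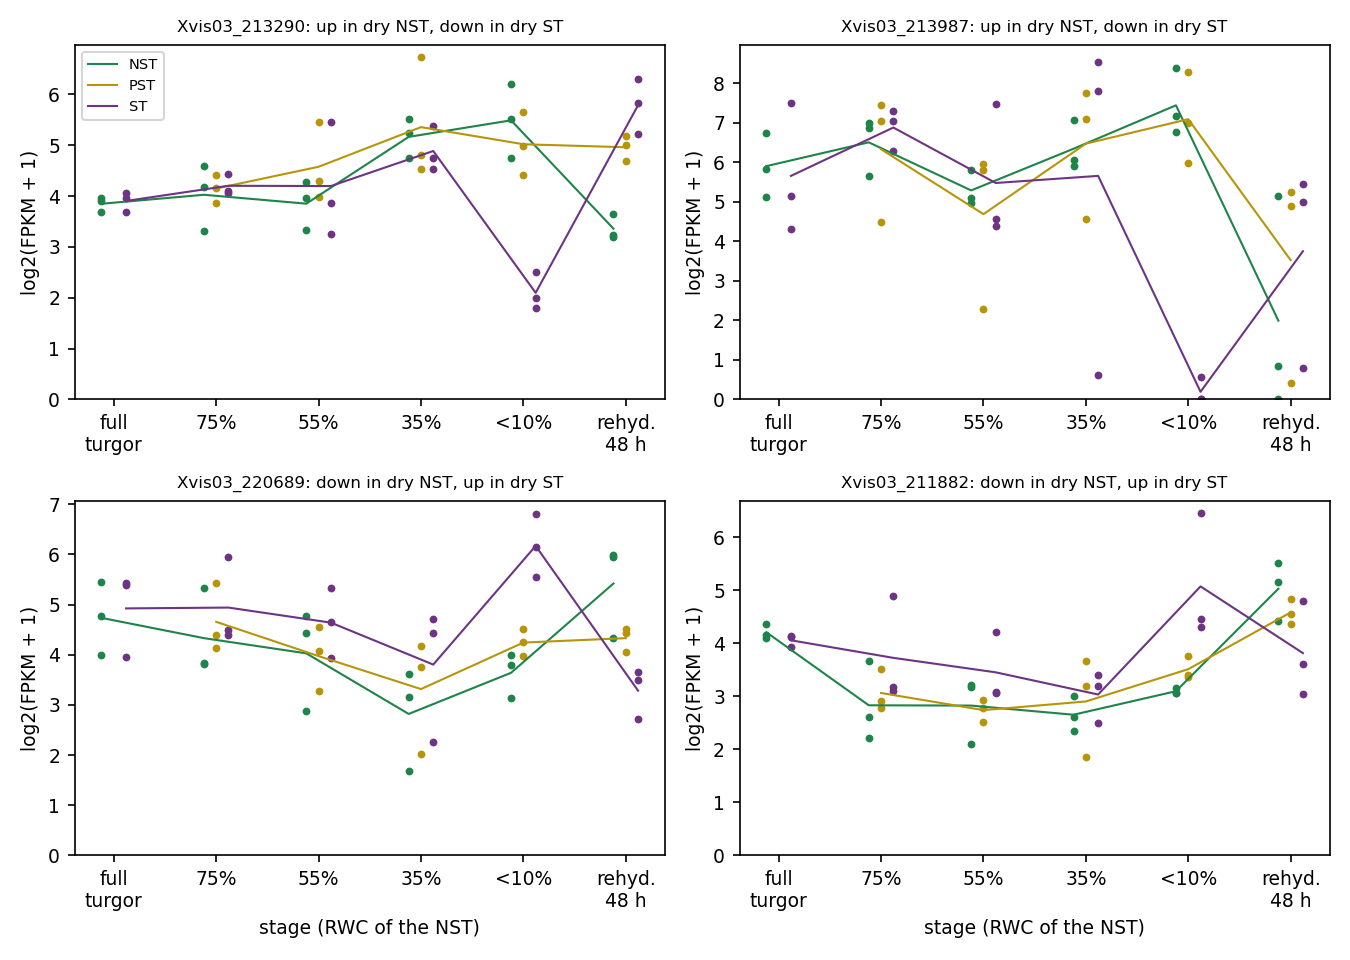
Log2(FPKM + 1) of 4 genes (vertical axis) by stage in NST, PST and ST. Points are libraries and lines join the means of 3 libraries. In Xvis03_213290 (2.46 to 4.69 FPKM in dry ST, 36.02 to 78.31 FPKM in rehydrated ST) the ST line is lowest at <10% RWC, and in Xvis03_220689 and Xvis03_211882 it peaks there.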

How the data were processed

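RNA sequencing of leaf blades gave 1 deposited table of FPKM values, with 1 column per library and values to 2 decimals. The submitters' processing notes name Bowtie2, TopHat and Cuffdiff. Not given in the sources used here were tool versions, genome build, filters and scaling. The authors' FPKM values hold no counts, so precision could only be read from the spread of 3 libraries.

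The 247 genes and the comparisons were chosen with earlier results of these data known. The exclusions were read as each removing a gene by itself. Tests took in the 18717 of 21815 entries that reached 1 FPKM in 3 or more libraries, and all 247 genes were among them. A model of group means on log2(FPKM + 1) was fitted to the 51 libraries by limma 3.58.1 (R 4.3.3), with a trend in the variance and 34 residual degrees of freedom, two-sided, with Benjamini-Hochberg adjustment over all entries within each comparison. Fold changes on this scale understate the change of low genes. The fit was tested on simulated data in which libraries varied independently. That test does not cover the shared deviations of libraries of 1 number given below. Named genes are the 2 of each class with the largest value of the smaller of their absolute log2 folds among those whose libraries did not overlap in either tissue. Groups came from the titles, and replicate numbers 0, 1 and 2 from the column names. Libraries of 1 number deviated together, with a correlation over 0.1 for each number, between ST and NST at 75%, 55% and 35% RWC and between rehydrated ST and PST (lowest 0.38), but not between rehydrated NST and ST or PST, nor between stages of 1 tissue. Alternatives were another pseudocount, 2 other filters, quantile normalization, fits of the compared groups alone, blocks and leaving out each library.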

Additional observations from a re-analysis of the deposited data

How the results depend on the processing

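The number of genes chosen, 247, was 40 at a fold of 2 and 526 at a fold of 1.3, and lay between 184 and 311 without 1 library or 1 replicate number. Other settings of the rule gave 179 to 318 genes. Quantile normalization gave 112 NST-raised and 69 ST-raised genes and kept 110 of the 247 in their class. The median of 3 columns kept 152. How far the higher summed FPKM of dry libraries weighed on the choice was not tested. The totals of called genes among the 247, without any 1 library, ran from 20 to 100 for NST from 75% to 35% RWC, 0 to 8 for ST against NST at 75% and 0 to 15 at 55% RWC, 14 to 75 for PST from 75% to <10% RWC, 18 to 41 for PST from dry to rehydrated, and, after rehydration, 117 to 133 for ST against NST, 63 to 94 for PST against NST and 7 to 27 for ST against PST. For ST from 75% to 35% RWC, for its difference from NST and for ST against NST at 35% RWC these totals were 0 throughout. When the groups of a comparison were fitted alone, limma called 0 for NST from 75% to 35% RWC, 0 for ST against NST at 75% and 55% RWC and 0 for ST against PST after rehydration (22 to 85 at an unadjusted p under 0.05), 4 for PST from 75% to <10% RWC and 20 for PST from dry to rehydrated. The counts at an unadjusted p in these fits were not made over all genes. At 55% RWC a pseudocount of 0.1 gave 3, no filter 2 and quantile normalization 2, and for ST against PST after rehydration quantile normalization gave 15. A replicate block common to all stages gave 8 at 75% RWC. The block within each stage gave 58 at 75%, 68 at 55% and 5 at 35% RWC, 80 for rehydrated ST against PST and, where numbers did not pair the libraries, 152 for rehydrated PST against NST. The cause of these shifts was not tested. For the named genes no direction turned in the rehydrated comparisons of ST and of PST with NST. Reads behind each value are unknown, which limits what can be said of low values.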
